A study of Mus musculus with 6 samples.

Results

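The Cyp4 genes encode microsomal cytochrome P450 enzymes that hydroxylate fatty acids, and 10 of them expressed in mouse liver are described here: 6 Cyp4a genes (Cyp4a10, Cyp4a12a, Cyp4a12b, Cyp4a14, Cyp4a31 and Cyp4a32), 3 Cyp4f genes (Cyp4f13, Cyp4f14 and Cyp4f15) and Cyp4v3. They were chosen by exact gene symbol among 35976 symbols in a table of RNA-seq counts. The rule sets no threshold on their values, but earlier results of these data were known when it was made. All 10 had enough counts to be tested. Polyadenylated RNA was sequenced from livers of male mice of genotype IRE1fl or IRE1PKO, with 3 libraries each. Both groups received the treatment labelled HFD, read here as a high-fat diet, and livers were taken 4 hours into feeding that followed a fast of 16 hours. IRE1 (gene Ern1) senses unfolded proteins in the endoplasmic reticulum. PKO is not spelled out in the labels, and the title of the series concerns signals between pituitary and liver, so which cells carry a deletion is not given in the sources used here. Strain and age are likewise not given in them. Whether each library is a separate animal is not stated either, so p-values rest on a spread between libraries that may be technical.

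Omega hydroxylation places a hydroxyl group on the terminal carbon of a fatty acid. The enzymes draw electrons from NADPH through P450 oxidoreductase, and alcohol and aldehyde dehydrogenases then turn the product into a dicarboxylic acid, which peroxisomes shorten. Cyp4a10 and Cyp4a14 are classical targets of PPARα, the nuclear receptor that responds to fatty acids in the fasted liver. Cyp4a12a is a male-biased gene whose product converts arachidonic acid to 20-HETE. Cyp4f enzymes act on leukotriene B4 and very long chain fatty acids, and Cyp4f14 also on vitamin E.

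Library totals lay between 35776219 and 39277435 counts. Ern1 in liver had 57.1 ± 6.74 CPM (counts relative to the scaled library total; SD, n = 3) in IRE1fl and 42.2 ± 4.88 CPM (SD, n = 3) in IRE1PKO, and fell by 0.44 on the log2 scale (SE 0.11, edgeR adjusted p = 0.0357). Hepatocyte markers, with Alb, Apoa1 and Ttr among 10 genes, summed to between 86631 and 106778 CPM in every library, a sum that is mostly Alb. Of these 10, 3 fell (Tat, G6pc and Pck1, enzymes of amino acid and glucose metabolism) and none rose. Markers of kidney tubule, a tissue that also expresses Cyp4a genes, summed to between 0.924 and 5.05 CPM, with Umod, Slc12a1 and Slc22a12 at 0 in all 6 libraries. Of the 7 stellate cell markers 6 rose, from sums of 204 to 235 CPM in IRE1fl to 383 to 410 CPM in IRE1PKO. Among 7 endothelial markers 3 rose. Over all tested genes 5.68% rose and 3.86% fell. Among 7 intestinal epithelium markers 2 rose, with sums, mostly Apoa4, of 518 to 774 CPM in IRE1fl and 2603 to 6033 CPM in IRE1PKO. In each of the kidney tubule, adipocyte, pancreatic acinar, erythroid and T, NK and B cell lists 1 marker fell. Among 6 cholangiocyte markers 1 rose and 1 fell. None of the 8 macrophage or 7 neutrophil markers was called. The part of these cell types in the results below was not tested, and in bulk tissue fewer cells of a type and less RNA per cell cannot be told apart.

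The members lie in 2 clusters and 1 separate site (mm10, coordinates from RefSeq GRCm38.p6, the same build). The Cyp4a genes occupy chr4:115299046-115622507 in the order Cyp4a12a, Cyp4a12b, Cyp4a14, Cyp4a10, Cyp4a31 and Cyp4a32, with Cyp4a14 alone on the minus strand. Cyp4f15, Cyp4f14 and Cyp4f13 occupy chr17:32685631-32947415, the first on the plus strand and the others on the minus strand. Cyp4v3 lies at chr8:45305801-45333163 on the minus strand. The RefSeq promoter table (GRCm38.p6, 250 bases before to 50 after a start site) matched 5 of the 10 members. Cyp4a10, Cyp4a12a, Cyp4a12b, Cyp4a14 and Cyp4a31 did not match. The promoters of the 4 matched genes that fell together in IRE1PKO are shown for comparison with each other, 5′ to 3′ on the gene's strand, with capitals marking CCAAT on either strand (read as ATTGG on the opposite one). They cover chr17:32947312-32947611 for Cyp4f13, chr17:32917307-32917606 for the first of 4 Cyp4f14 entries, chr17:32685409-32685708 for Cyp4f15 and chr8:45333114-45333413 for Cyp4v3.
Cyp4f13: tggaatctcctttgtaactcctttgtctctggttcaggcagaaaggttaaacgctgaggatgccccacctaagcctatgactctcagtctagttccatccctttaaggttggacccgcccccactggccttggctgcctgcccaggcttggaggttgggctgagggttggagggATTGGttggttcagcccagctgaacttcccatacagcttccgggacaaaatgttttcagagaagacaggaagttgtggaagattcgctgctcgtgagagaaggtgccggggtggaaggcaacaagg
Cyp4f14: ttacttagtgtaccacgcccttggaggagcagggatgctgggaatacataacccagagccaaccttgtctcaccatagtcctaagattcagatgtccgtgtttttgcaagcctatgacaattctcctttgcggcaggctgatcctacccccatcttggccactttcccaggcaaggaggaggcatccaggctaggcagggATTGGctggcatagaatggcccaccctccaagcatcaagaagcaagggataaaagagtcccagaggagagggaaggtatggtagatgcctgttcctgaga
Cyp4f15: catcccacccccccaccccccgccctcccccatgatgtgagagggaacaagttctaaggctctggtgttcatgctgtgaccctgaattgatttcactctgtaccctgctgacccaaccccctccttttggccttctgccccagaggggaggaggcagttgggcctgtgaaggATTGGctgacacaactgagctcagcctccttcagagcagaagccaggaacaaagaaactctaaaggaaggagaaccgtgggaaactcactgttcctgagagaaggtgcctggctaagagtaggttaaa
Cyp4v3: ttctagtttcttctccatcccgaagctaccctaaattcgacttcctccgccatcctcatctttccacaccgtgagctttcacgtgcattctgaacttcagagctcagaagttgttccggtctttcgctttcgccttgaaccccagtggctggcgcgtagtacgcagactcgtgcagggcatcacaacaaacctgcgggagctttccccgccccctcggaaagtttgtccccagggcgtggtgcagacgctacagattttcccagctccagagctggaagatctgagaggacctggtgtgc

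Each of the 3 printed Cyp4f promoters held CCAAT once, on the opposite strand, and Cyp4v3 held none. It began 76 bases before the start site in Cyp4f13 and 78 bases before it in Cyp4f15. In 3 of the 4 Cyp4f14 entries, which overlap, the same match lay 50, 64 or 77 bases before the start, by the start annotated. The remaining entry did not reach that match and held another CCAAT, on the gene's own strand, 24 bases before its start. CCAAT occurs in 37.4% of 32851 mouse promoter windows of 300 bases, so a match is common. The PPAR response element of the DR1 type was searched as a pair of AGGTCA hexamers in the same orientation with 1 base between them, on both strands. It occurs in 0.0396% of windows and in none of the 5 matched members. A single hexamer AGGTCA, found in 16.3% of windows, was also in none of them, which says only that these letters are not in these windows. TATAAA, found in 13.6% of windows on either strand, was present in Cyp4a32 alone among the 5. It lay there on the opposite strand, beginning 113 bases before the start site.

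Of the 10 members, Cyp4a12a rose in IRE1PKO and 5 fell: Cyp4a12b, all 3 Cyp4f genes and Cyp4v3. Among all 14954 tested genes, 5.68% rose and 3.86% fell (edgeR quasi-likelihood test, Benjamini-Hochberg adjusted p under 0.05). Cyp4a10, Cyp4a14, Cyp4a31 and Cyp4a32 were not called. The groups of 3 libraries did not overlap for 9 members, 4 of them higher and 5 lower, against 31% of all tested genes in either direction. The exception was Cyp4a32. The 10 genes together took 0.135% to 0.215% of each library's counts.

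**Figure D1:**
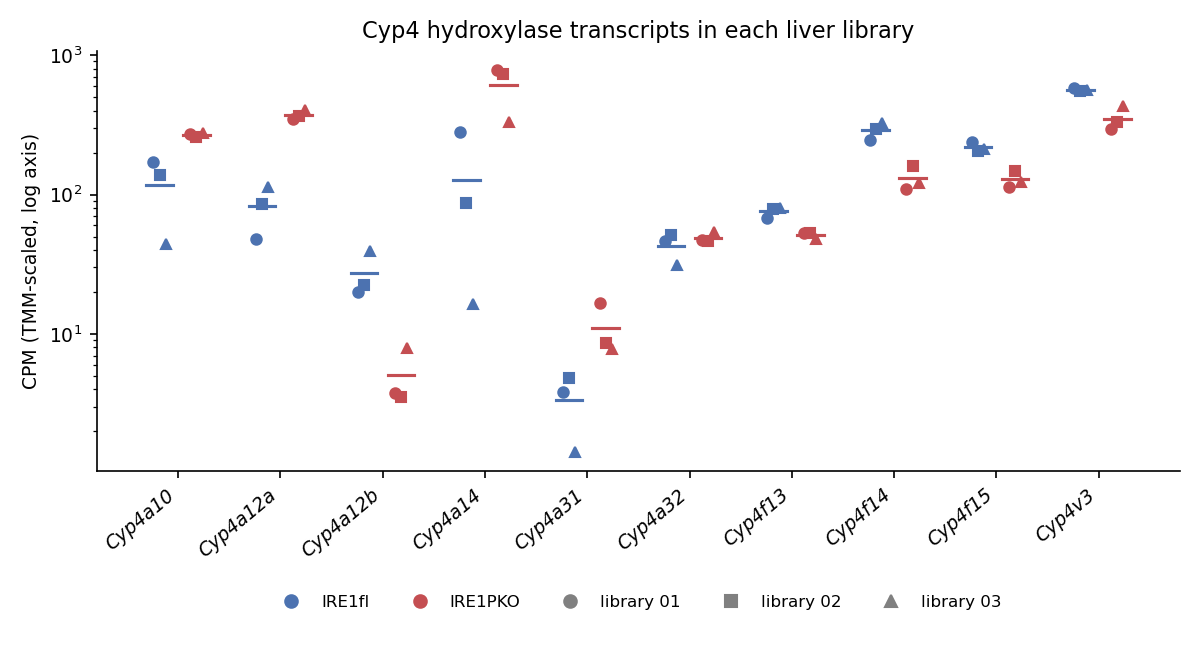
TMM-scaled CPM of each member (log axis) in the 3 IRE1fl (blue) and 3 IRE1PKO (red) libraries, with a bar at each group mean and a marker shape for each library number. The IRE1fl points of Cyp4a14 spread from 16.3 to 279 CPM, while those of Cyp4v3 lie between 554 and 578 CPM.

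Cyp4a12a counts came to 47.8, 85.6 and 113.8 CPM in IRE1fl, and to 349, 368 and 404 CPM in IRE1PKO. Every IRE1PKO library was above every IRE1fl library, and the IRE1fl libraries differed among themselves by 2.38-fold. Its log2 fold change was 2.18 (SE 0.33, edgeR adjusted p = 0.0160). Cyp4a12b, its close copy, went the other way. It had 20.0, 22.4 and 39.6 CPM in IRE1fl and 3.80, 3.56 and 7.94 CPM in IRE1PKO, again without overlap. Its log2 fold change was -2.42 (SE 0.46, edgeR adjusted p = 0.0389). Both calls were lost in 4 of 16 alternative analyses. For Cyp4a12a these left out IRE1fl 02 or any 1 of the IRE1PKO libraries (adjusted p = 0.0616 to 0.0696 by edgeR). For Cyp4a12b they left out IRE1fl 02, IRE1PKO 01 or IRE1PKO 02, or applied no filter on low counts (edgeR adjusted p = 0.0747 to 0.137).

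The 2 copies are hard to separate in sequencing. In GENCODE vM21 their longest coding transcripts had 41 mismatches over 2394 aligned bases, an identity of 98.3%. Of the 100-base windows of the Cyp4a12a transcript, 35.8% occurred identically in Cyp4a12b, which leaves 1491 windows that tell it apart. How the authors' counting treated reads that fit both copies is not given in the sources used here, so the values of each copy are uncertain. Summed before the fit, the pair had 67.8, 108 and 153 CPM in IRE1fl and 353, 371 and 412 CPM in IRE1PKO. The sum, which does not depend on how reads were divided between the copies, had a log2 fold change of 1.79 (SE 0.30, edgeR adjusted p = 0.0203). This call too was lost with no filter on low counts (edgeR adjusted p = 0.0627) and without IRE1fl 02 or any 1 of the IRE1PKO libraries (edgeR adjusted p = 0.0728 to 0.0839).

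Within the pair, Cyp4a12a took 70.5%, 79.3% and 74.2% of the counts in IRE1fl and 98.9%, 99.0% and 98.1% in IRE1PKO. The exact 95% binomial interval, which covers counting error only, was widest in IRE1fl 01, from 68.7% to 72.3%. The interval treats each count as independent, and is too narrow if both mates of a read pair were counted. The groups did not overlap. Its mean was 74.7% ± 4.39 (SD, n = 3) in IRE1fl and 98.7% ± 0.530 (SD, n = 3) in IRE1PKO, a difference of 24.0 percentage points (exact permutation test, two-sided, p = 0.1, the smallest that 3 against 3 libraries allow). In counts, Cyp4a12b fell from between 722 and 1468 to between 131 and 325 while Cyp4a12a rose from between 1727 and 4224 to between 13555 and 16525.

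**Figure D2:**
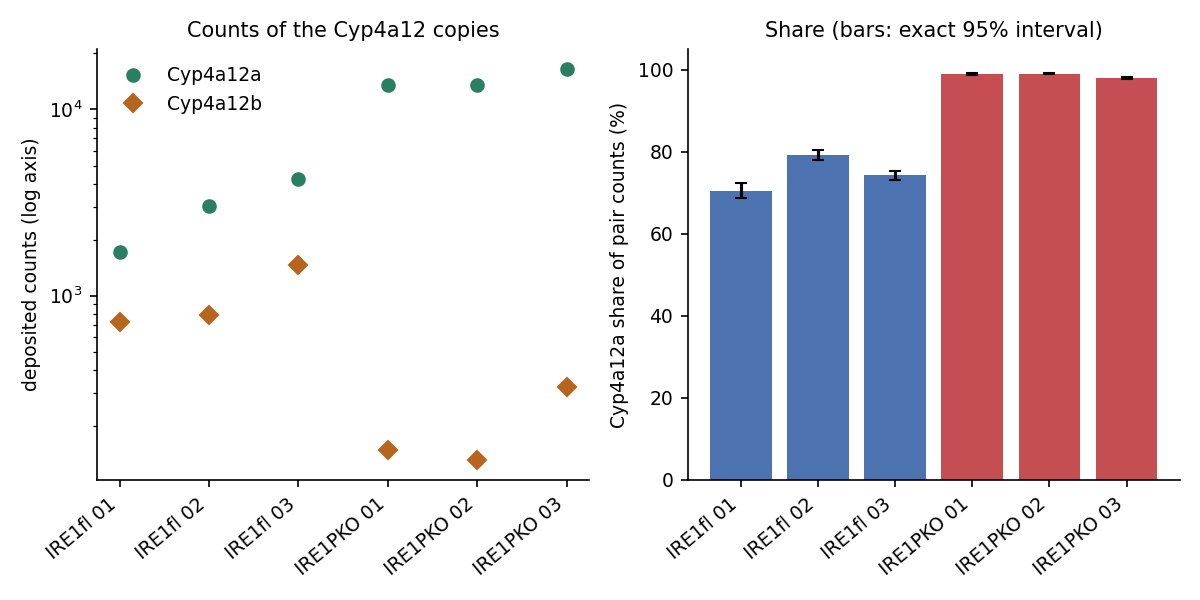
Left, deposited counts of Cyp4a12a (circles) and Cyp4a12b (diamonds) in each library on a log axis. Right, the share of Cyp4a12a in the counts of the pair (percent), with exact 95% binomial intervals. These cover counting error only and treat each count as independent. Cyp4a12a lies between 70.5% and 79.3% in IRE1fl (blue) and between 98.1% and 99.0% in IRE1PKO (red).

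Cyp4a14 had 279, 87.3 and 16.3 CPM in IRE1fl and 783, 728 and 329 CPM in IRE1PKO. The groups did not overlap, and its mean was 4.81 times higher in IRE1PKO, yet the IRE1fl libraries differed from each other by 17.1-fold. Its log2 fold change of 2.27 had an SE of 1.15 (edgeR adjusted p = 0.323), so a difference was not called. Cyp4a10 had 172, 137 and 44.0 CPM in IRE1fl and 271, 259 and 274 CPM in IRE1PKO. Here the IRE1PKO libraries lay within 1.06-fold of each other and the IRE1fl libraries within 3.92-fold. Its log2 fold change was 1.19 (SE 0.54, edgeR adjusted p = 0.272). In the range of log2 CPM within IRE1fl, Cyp4a14 spanned 4.10 and Cyp4a10 1.97, against a median of 0.32 over all tested genes.

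IRE1fl 03 was the lowest of the IRE1fl libraries for Cyp4a10, Cyp4a14, Cyp4a31 and Cyp4a32, and the highest for Cyp4a12a, Cyp4a12b, Cyp4f13 and Cyp4f14. Without it Cyp4a10 passed the threshold with a smaller log2 fold change of 0.79 (SE 0.12, edgeR adjusted p = 0.00727). Cyp4a14 passed in none of 16 alternatives, with log2 fold changes from 1.74 to 3.56. The same library was the lowest of the 3 for 22 of 30 tested PPARα targets outside the Cyp4 and peroxisomal lists and for 15 of 24 peroxisomal genes, against 33.8% of all tested genes. It was the highest for 13 of 20 male-biased genes, against 34.5% of all tested genes. IRE1fl 01 stood at the other end. It was the highest for 18 of the 30 PPARα targets, against 34.2% of all tested genes, and the lowest for 16 of the 20 male-biased genes, against 33.7%. These counts describe single libraries and carry no test.

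Cyp4a31 and Cyp4a32 are the close relatives of Cyp4a10. Cyp4a31, the least abundant member in IRE1fl, had 3.85, 4.82 and 1.43 CPM there and 16.8, 8.60 and 7.80 CPM in IRE1PKO. The groups did not overlap, with a log2 fold change of 1.72 (SE 0.53, edgeR adjusted p = 0.113). It passed the threshold in 4 of 16 alternatives, among them the DESeq2 Wald test (adjusted p = 0.0327), limma-voom (adjusted p = 0.0393) and edgeR without robust fitting (adjusted p = 0.0349). Cyp4a32 had 46.2, 51.1 and 31.5 CPM in IRE1fl and 47.0, 46.5 and 53.6 CPM in IRE1PKO. Its groups overlapped, and its log2 fold change was 0.19 (SE 0.17, edgeR adjusted p = 0.522).

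The Cyp4a10 transcript is identical to that of Cyp4a32 at 97.2% of aligned bases and to that of Cyp4a31 at 95.7%. Identical 100-base windows were fewer than in the Cyp4a12 pair, 12.7% of those of Cyp4a10, 20.1% of Cyp4a32 and 8.22% of Cyp4a31. Summed, these 3 genes had 222, 193 and 76.9 CPM in IRE1fl and 335, 314 and 336 CPM in IRE1PKO, without overlap. The log2 fold change of the sum was 1.001 (SE 0.42, edgeR adjusted p = 0.229), and without IRE1fl 03 it was 0.66 (adjusted p = 0.00918). Cyp4a32 made up 20.8%, 26.5% and 41.0% of this sum in IRE1fl and 14.1%, 14.8% and 16.0% in IRE1PKO. Cyp4a14 shared no 100-base window with another gene.

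**Figure D3:**
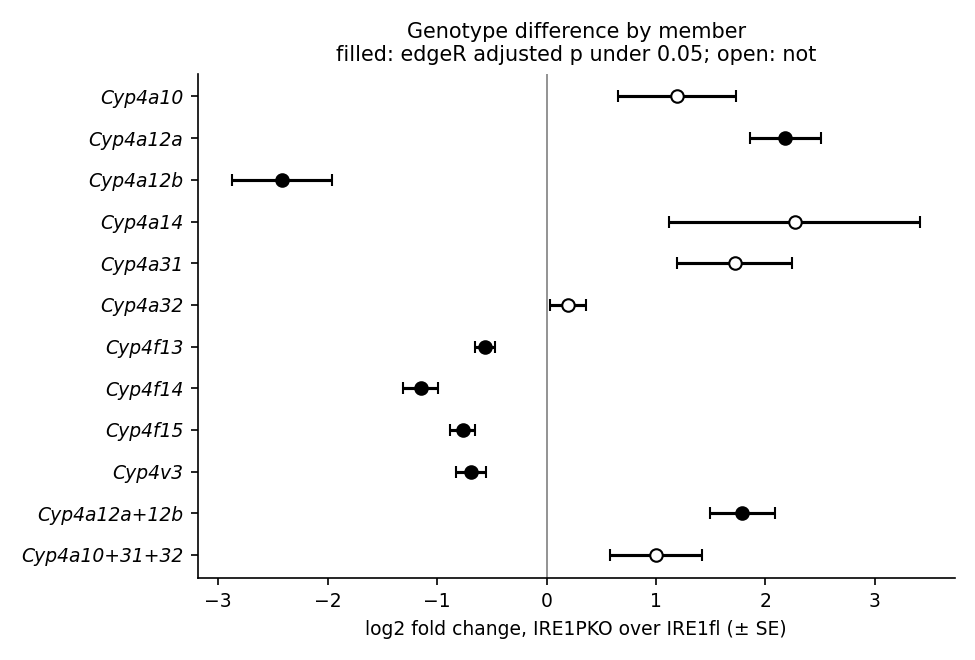
Log2 fold change of each member, and of the summed copies, IRE1PKO over IRE1fl, with the standard error as bars; filled points have an edgeR adjusted p under 0.05. The bars of Cyp4a14 (SE 1.15) are the widest, and those of Cyp4f13 (SE 0.09) the narrowest.

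Other genes along the Cyp4a cluster had too few counts to test or were not called. Cyp4a29, Cyp4a30b and Cyp4x1 had 0 counts in all 6 libraries. Cyp4b1, which lies next to Cyp4a32, averaged 15.2 CPM in IRE1fl against 15.3 CPM in IRE1PKO (log2 fold change 0.00, SE 0.15, edgeR adjusted p = 0.990). Beyond it, Efcab14 and Atpaf1, named here for their position, had log2 fold changes of 0.04 and 0.00 and were not called. On the other flank Pdzk1ip1, also named for its position, averaged 1.49 CPM in IRE1fl against 4.05 CPM in IRE1PKO (log2 fold change 1.44, SE 0.82, edgeR adjusted p = 0.347).

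**Figure D4:**
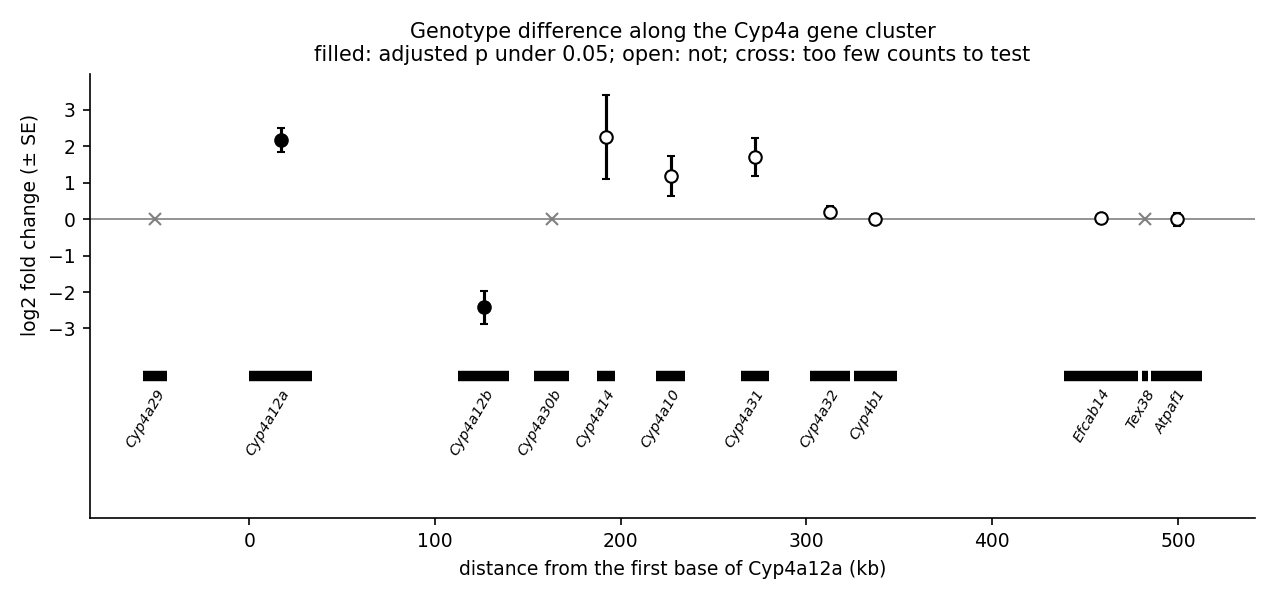
Log2 fold change (IRE1PKO over IRE1fl, bars ± SE) of protein-coding genes along the Cyp4a cluster, against distance in kb from the first base of Cyp4a12a; black blocks show each gene's extent. Filled points passed an adjusted p of 0.05, open points did not, and crosses mark genes with too few counts to test. Cyp4a12a (2.18) and Cyp4a12b (-2.42) are the only filled points, and lie on opposite sides of 0.

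The Cyp4f genes fell together. Cyp4f14 had 245, 296 and 328 CPM in IRE1fl and 109, 161 and 122 CPM in IRE1PKO. All IRE1PKO libraries were below all IRE1fl libraries, with a log2 fold change of -1.15 (SE 0.16, edgeR adjusted p = 0.00235). Cyp4f15 had 238, 207 and 210 CPM in IRE1fl and 114, 148 and 123 CPM in IRE1PKO. It did not overlap either and fell by 0.77 (log2, SE 0.11, edgeR adjusted p = 0.00221). Cyp4f13 changed by less than these, from 68.1, 79.3 and 79.8 CPM to 53.0, 53.3 and 47.7 CPM. It fell by 0.56 (log2, SE 0.09, edgeR adjusted p = 0.00415). No 100-base window of the 3 transcripts was shared with another gene.

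Cyp4v3, the mouse counterpart of the human gene CYP4V2, in which mutations cause Bietti crystalline dystrophy of the retina, fell as well. It had 578, 554 and 564 CPM in IRE1fl and 293, 329 and 429 CPM in IRE1PKO. The IRE1fl libraries lay within 1.04-fold of each other and the IRE1PKO libraries within 1.46-fold, without overlap between groups. Its log2 fold change was -0.69 (SE 0.13, edgeR adjusted p = 0.00850). Cyp4f13, Cyp4f14, Cyp4f15 and Cyp4v3 passed the threshold in all 16 alternatives, with log2 fold changes between -1.33 and -0.49.

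Cyp4f16 and Cyp4f17 lie on the same stretch of chromosome 17, before Cyp4f15 and beyond Cyp4f40 and Cyp4f37, which had too few counts to test. Cyp4f16 averaged 3.66 CPM in IRE1fl against 1.98 CPM in IRE1PKO (log2 fold change -0.89, SE 0.28, edgeR adjusted p = 0.0678). Cyp4f17 had 14.2 and 17.9 CPM (log2 fold change 0.33, SE 0.11, edgeR adjusted p = 0.0884). Neither was called, and their difference from the 3 Cyp4f members was not tested. Zfp871, named for its place between Cyp4f15 and Cyp4f14, had 116.7 and 116.2 CPM. Of the 4 other Cyp4 genes with enough counts to test (Cyp4b1, Cyp4f16, Cyp4f17 and Cyp4f18), none rose or fell by edgeR, and the DESeq2 Wald test called 1 lower.

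Divided by the length of the longest coding transcript, levels can be set beside each other. In IRE1fl the order was Cyp4v3 (149 CPM per kb), Cyp4f14 (130), Cyp4f15 (101), Cyp4a10 (55.8), Cyp4a14 (51.1), Cyp4f13 (43.2), Cyp4a12a (34.0), Cyp4a32 (28.1), Cyp4a12b (11.4) and Cyp4a31 (1.34). The library ranges of neighbours overlapped between Cyp4v3 and Cyp4f14 and along the run from Cyp4a10 to Cyp4a32, and were apart elsewhere. In IRE1PKO, Cyp4a14 (246 CPM per kb) and Cyp4a12a (154) headed the order with overlapping ranges. Cyp4a10 (127) and Cyp4v3 (92.0) followed, each apart from its neighbours. Cyp4f15 (59.2) and Cyp4f14 (58.7) then overlapped, as did Cyp4a32 (32.05) and Cyp4f13 (29.3), and Cyp4a31 (4.41) and Cyp4a12b (2.13) came last, also overlapping. The order is a description, and these levels per kb depend on the annotated transcript, which for Cyp4a32 holds hardly more than the coding sequence. Divided by coding length instead, some neighbours changed places by group mean. In IRE1PKO Cyp4v3 (223 CPM per coding kb) then stood above Cyp4a10 (176). In IRE1fl Cyp4a14 (83.9) stood above Cyp4a10 (77.1), and Cyp4a12a (54.1) above Cyp4f13 (47.4).

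Likeness of profile was measured as the root mean square distance between mean-centred log2 CPM over the 6 libraries, where 0 is the same profile. It is a description over libraries that differ by genotype, so genes with a like genotype difference come out close. Among the members, Cyp4f15 and Cyp4v3 were at 0.202 and Cyp4f13 and Cyp4f15 at 0.208, while Cyp4a12a and Cyp4a12b were at 2.39. Of 11198 genes outside the family, Clstn3 (0.234), Napepld (0.241) and Cyp2b10 (0.262) were nearest to Cyp4a10. Cyp2b13 (0.348), Hao2 (0.357) and Slc22a29 (0.602) were nearest to Cyp4a14. Hao2, for example, had 3.77, 0.624 and 0.162 CPM in IRE1fl and 10.1, 11.5 and 3.32 CPM in IRE1PKO, with the same order of libraries within IRE1fl as Cyp4a14. Ttc39a (0.274), H2-Q1 (0.288) and Lrrc8b (0.315) were nearest to Cyp4a12a. Egfr (0.251), the receptor of epidermal growth factor, was nearest to Cyp4a12b, followed by Slco1a1 (0.280), an organic anion transporter, and C8b (0.359), a complement component. Slco1a1 and C8b are both on the male-biased list.

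The genes that serve the hydroxylases were described by lists, beside a median log2 fold change of 0.00 over all tested genes, of which, as above, 5.68% rose and 3.86% fell. These lists and those below were chosen with earlier results of these data known. Of 8 electron donors and heme genes 2 rose and 1 fell (median 0.24). Por, the oxidoreductase that passes electrons to these P450s, fell from 678.5 to 467.1 CPM (log2 fold change -0.54, SE 0.10, edgeR adjusted p = 0.00584). Alas1, the rate-limiting enzyme of heme synthesis in liver, rose from 243 to 497 CPM (log2 fold change 1.03, edgeR adjusted p = 0.0137), and Cyb5b, a cytochrome b5 of the outer mitochondrial membrane, rose by 0.58. Without IRE1fl 03 none of this list rose, and 1 rose without IRE1PKO 01 or IRE1PKO 02.

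Of 10 tested alcohol and aldehyde dehydrogenases, Aldh1a1 rose (log2 fold change 0.45, edgeR adjusted p = 0.0434) and Adh7 fell (-0.62, edgeR adjusted p = 0.0104), with a median of 0.10. Aldh3a2, the fatty aldehyde dehydrogenase that completes omega oxidation, had 605, 539 and 304 CPM in IRE1fl and 867, 962 and 894 CPM in IRE1PKO. Its groups did not overlap (log2 fold change 0.91, SE 0.24, edgeR adjusted p = 0.0556). No gene of this list rose when any 1 of the IRE1PKO libraries was left out.

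Of 24 peroxisomal genes that take up and shorten long and dicarboxylic acids, 5 rose and 1 fell (median 0.26). Pex11a, which promotes peroxisome division, rose from 117 to 251 CPM (log2 fold change 1.10, edgeR adjusted p = 0.00277). Acot4, a thioesterase for dicarboxylic acyl-CoAs, rose by 0.97, and Abcd2, a peroxisomal fatty acid transporter, by 1.36 on the log2 scale. Amacr, a racemase of branched-chain acyl-CoAs, fell from 207 to 139 CPM. The count of genes that rose was 3 without IRE1fl 02 or without any 1 of the IRE1PKO libraries.

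Of 30 tested PPARα targets outside these lists 13 rose and none fell (median 0.37). Pdk4, which restrains glucose oxidation, had 3.93, 3.21 and 3.07 CPM in IRE1fl and 28.1, 18.4 and 20.0 CPM in IRE1PKO (log2 fold change 2.70, SE 0.19, edgeR adjusted p = 3.33e-05). Its IRE1fl libraries lay within 1.28-fold of each other, closer than those of Cyp4a10 and Cyp4a14. Fgf21, a fasting hormone, rose by 2.37, Cd36, a fatty acid translocase, by 2.10, and Acot2, a mitochondrial thioesterase, by 1.90. Vnn1 rose by 1.46, Ucp2 by 0.98 and Plin2, a lipid droplet coat protein, by 0.88. The other 6 that rose were Txnip, Fabp1, Fabp4, Fitm2, G0s2 and Acadl, with log2 fold changes from 0.34 to 0.78. A place on this list does not show that PPARα acted on a gene here. Which regulator acted was not tested. The count that rose was between 6 and 8 without IRE1fl 03 or without any 1 of the IRE1PKO libraries, and with DESeq2 1 gene of the list fell.

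Of 18 nuclear receptors and coregulators 1 rose and 2 fell (median -0.17), and the share that rose is close to the 5.68% of all tested genes. Ppara, the gene of PPARα, averaged 540 CPM in IRE1fl and 549 CPM in IRE1PKO and was not called (log2 fold change 0.02, SE 0.10, edgeR adjusted p = 0.917). Pparg, a relative of PPARα that is induced in fatty liver, had 11.02, 8.79 and 5.44 CPM in IRE1fl and 29.3, 26.7 and 35.3 CPM in IRE1PKO (log2 fold change 1.85, edgeR adjusted p = 0.00488). The coactivator subunit Med1 fell by 0.34 on the log2 scale, and no gene of the list was called lower when libraries were scaled by their totals alone. Of 16 tested growth hormone and androgen inputs, Igf1, the liver's growth hormone target, fell by 0.62 (edgeR adjusted p = 0.0388), and none rose; scaled by library totals alone, Igf1 was not called and 1 gene of the list rose. Jak2 was higher in IRE1PKO (log2 fold change 0.34, edgeR adjusted p = 0.0522) and Stat5b lower (-0.28, edgeR adjusted p = 0.0645), and neither was called.

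Of 20 tested male-biased liver genes, with the Cyp4a12 pair left out, 10 fell and none rose (median -1.47), while the 3.86% of all tested genes that fell are the background. Hsd3b5, a steroid dehydrogenase, had 112, 198 and 270.2 CPM in IRE1fl and 0.590, 0.814 and 3.35 CPM in IRE1PKO (log2 fold change -6.91, SE 0.87, edgeR adjusted p = 0.0186). Serpina1e fell by 4.93, Cspg5 by 2.82, Cyp7b1, an oxysterol hydroxylase, by 2.21, and Slco1a1 by 2.19. The others that fell were Gstp1, Cyp2f2, Cyp2u1, C6 and C8b, by 1.02 to 1.86. Cyp4a12a rose while these genes fell, and Cyp4a12b fell with them. The list count was 16 to 18 with the DESeq2 Wald test, limma-voom or edgeR without robust fitting, and 4 or 5 without IRE1fl 02, IRE1PKO 01 or IRE1PKO 02.

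**Figure D5:**
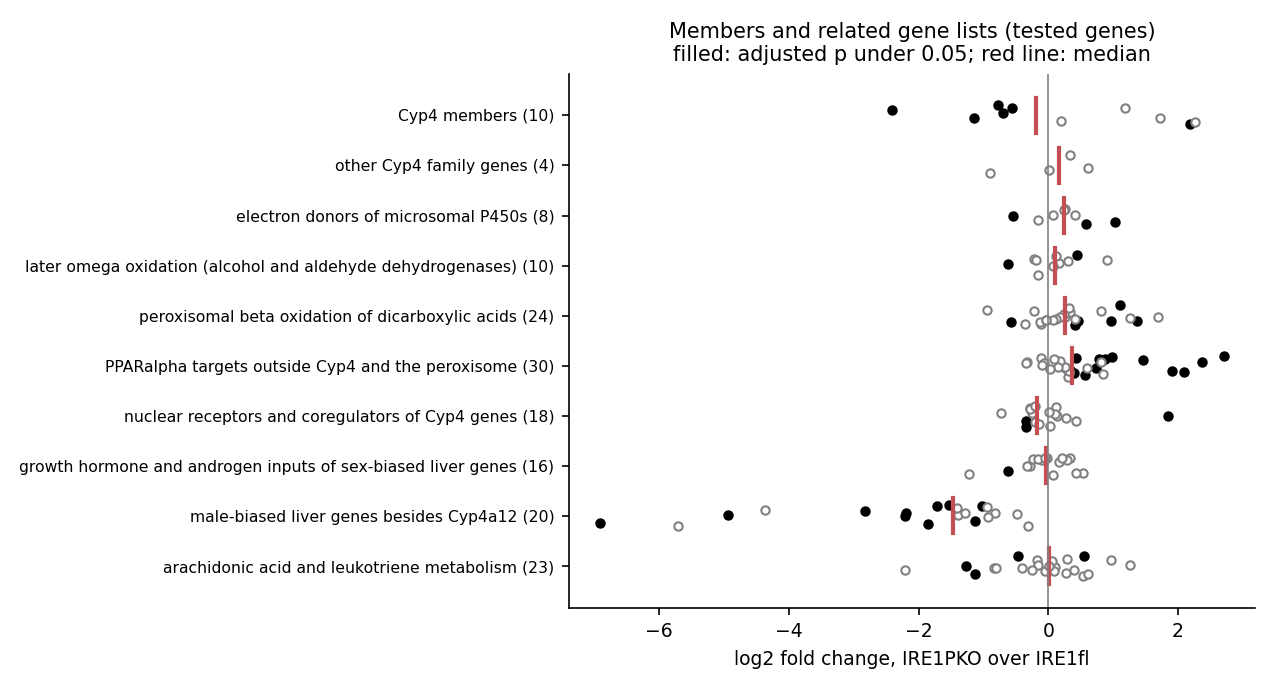
Log2 fold change (IRE1PKO over IRE1fl) of the members and of the tested genes of 9 lists, each point a gene (spread vertically to be visible), filled where the edgeR adjusted p is under 0.05; red lines mark medians. The median of male-biased genes lies at -1.47 and that of PPARα targets at 0.37, while the members lie on both sides of 0.

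Of 23 tested genes of arachidonic acid and leukotriene metabolism, which make or use substrates and products of these enzymes, 3 fell and 1 rose (median 0.02). Cyp2c44, an arachidonic acid epoxygenase, had 335.5, 309 and 368.5 CPM in IRE1fl and 109, 160 and 153 CPM in IRE1PKO (log2 fold change -1.27, SE 0.14, edgeR adjusted p = 0.000816). Cyp2u1, a P450 of the same substrate that is also on the male-biased list, fell by 1.12, and Ephx2, the soluble epoxide hydrolase, by 0.47. Pla2g6, a phospholipase, rose by 0.55. The count that fell was 1 without IRE1PKO 01 and 5 with limma-voom or without IRE1PKO 02.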

How the data were processed

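Unnormalized counts for every gene symbol and library were deposited by the authors in 1 table. Per the submitters' processing notes the build was mm10; the sources used here do not name the aligner, counter or annotation. Among values of 1 to 8, even ones outnumbered odd ones by 2.58 to 3.19 times, so both mates of a read pair may have been counted, and halved counts were tried. Counts of 14954 genes that passed filterByExpr were TMM-scaled and compared in edgeR 4.0.16 under R 4.3.3 by the quasi-likelihood test with a robust trend, two-sided, at a Benjamini-Hochberg adjusted p of 0.05 across these genes. CPM are relative to TMM-scaled totals, and fold changes are IRE1PKO over IRE1fl. Copies were compared in GENCODE vM21 transcripts. Chi-square per gene between libraries of 1 group was 28.6 to 63.4, so none was a copy. The steps were tested on simulated data.

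The members and lists were chosen with earlier results of these data known. Named genes are the members and the called genes of each list with up to 4 others of smallest p. The 3 nearest profiles of Cyp4a10, Cyp4a14, Cyp4a12a and Cyp4a12b are also named. Genes named for position, and Ppara, named as the receptor of the PPARα targets, were chosen after their values were seen. Some list genes are not reported here. Alternatives were other scalings, filters, tools (DESeq2 1.42.0, limma-voom with limma 3.58.1) and thresholds, a block for the replicate number, and leaving out 1 library at a time. The table held 27 date-like symbols, which were kept in the totals.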

Additional observations from a re-analysis of the deposited data

How the results depend on the processing

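No member changed direction in 16 alternatives. The 5 members that fell were 4 without IRE1fl 02, IRE1PKO 01 or IRE1PKO 02, and 5 in the other alternatives that kept the threshold of 0.05, except with no filter on low counts, where Cyp4a12b did not pass. The members that rose were 2, by the addition of Cyp4a31, with the DESeq2 Wald test, limma-voom, edgeR without robust fitting and the replicate block, and 0 to 2 with 1 library left out. The summed Cyp4a12 pair had a log2 fold change of 1.79 (edgeR adjusted p = 0.0627) with no filter, and 1.53 to 2.11 with 1 library left out, past the threshold only without IRE1fl 01 or IRE1fl 03. The sum of Cyp4a10, Cyp4a31 and Cyp4a32 ranged from 0.66 to 1.28 in those fits and passed only without IRE1fl 03. The difference in the Cyp4a12a share ranged from 21.9 to 26.3 percentage points. Over all tested genes, 849 rose and 577 fell. With the DESeq2 Wald test 1182 rose and 890 fell, at a threshold of 0.1 there were 1299 and 992, and scaled by library totals alone 1148 and 415. With 1 library left out, 398 to 868 rose and 255 to 616 fell. The cause of these shifts was not tested. Deviations of same-numbered libraries were weakly correlated (0.06, -0.02 and 0.08), which does not settle whether replicate numbers pair the libraries. With the replicate block 1051 genes rose and 814 fell. In that fit 6 genes of arachidonic acid metabolism fell, and Cyp4a31 had an edgeR adjusted p of 0.0229. The medians of the arachidonic acid list and of the growth hormone and androgen list, both near 0, changed sign 10 times in all over the 16 alternatives, and no other list median did.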
